A study of Mus musculus with 12 samples.

Results

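The genes described here are the nuclear genes for the oxidative phosphorylation machinery of mitochondria. They were taken by gene symbol: every name starting with Nduf, Uqcr, Cox4 to Cox8 or Atp5, the names Sdha to Sdhd, and Cycs and Cyc1. The rule found 94 genes among the 24421 in the table. Of these, 36 encode subunits of complex I and 7 encode complex I assembly factors. Complex II has 4 members, complex III has 9 with Cyc1 among them, complex IV has 20 and ATP synthase (complex V) has 15. Cycs encodes the mobile carrier cytochrome c, and Atp5s and Atp5sl carry the prefix but are not counted among the subunits here.

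RNA from thymocytes of C57BL/6 mouse embryos was sequenced in 12 libraries, 2 for each of 6 groups. All embryos lacked Rag1, so that their thymocytes cannot rearrange antigen receptor genes, and all carried loxP-flanked Bcl6 (Bcl6 fl/fl). The control groups were LckCre- and the groups called KO were LckCre+, Lck being a gene switched on in early T cells. Unstimulated CD25+ thymocytes were sorted in 2 control and 2 KO libraries. Thymi given anti-CD3 at 1 µg/ml for 2 days on filters, an antibody that stands in for a pre-T-cell receptor signal, were sorted into ISP cells (CD4-CD8+, immature single positive) and DP cells (CD4+CD8+, double positive), again with 2 control and 2 KO libraries each. Most labels give the age as E16.5 and the treatment protocol gives E17.5. Every control carries the floxed allele without Cre, so loss of Bcl6 and presence of Cre cannot be told apart, and because CD25 cells were not cultured, cell population and culture with antibody cannot be told apart in comparisons with CD25 cells. No label ties a library to its own embryo or litter, so the p-values measure the spread between these samples, which may be technical in some groups. The sex-linked gene Xist was 20.5 and 0.766 RPKM in ISP control and 22.5 and 0.914 RPKM in DP control. The 2 libraries of each of these groups thus differed in sex composition.

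The labels of the anti-CD3 libraries conflict. Of the 8 such libraries, 6 carry a sequencing name that disagrees with their title on population or genotype, and 5 carry a developmental stage that disagrees on population. Groups follow the titles here. Cd4 was between 13.9 and 20.5 RPKM (reads per kilobase scaled for depth, a level per transcript length) in the 4 libraries titled ISP and between 190.6 and 344.1 RPKM in the 4 titled DP, and Il2ra, which encodes CD25, was between 537.6 and 603.3 RPKM in CD25 cells and at most 44.7 RPKM elsewhere. Groups taken from the sequencing names instead gave 0 of the 90 genes tested, and 0 of all 11303 genes, as called between DP and ISP cells. Libraries on whose population both labels concur gave 71 lower and 3 higher there, close to the counts by title. Over all 11151 genes tested in them, 3161 were lower and 2993 higher. KO against control in DP cells cannot be checked with the sequencing names, which set 2 libraries titled DP against 2 titled ISP in that comparison. They gave 66 of the 90 genes lower and 2 higher, with 2907 lower and 2715 higher over all genes. Bcl6 was 72.5 and 70.0 RPKM in DP control and 87.7 and 111.3 RPKM in DP KO, so its level does not show the deletion. The values are per gene and not per exon, and why Bcl6 was not lower in KO was not tested. Reads recovered from the RPKM steps numbered between 9657575 and 14227859 per library. Haemoglobin genes Hba-a1, Hbb-bs and Hbb-bt were at 0, the summed muscle list (Myog, Acta1, Ckm and Myh3) reached at most 0.288 RPKM in any library, and the 4 mesenchyme markers summed to at most 1.09 RPKM.

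Oxidative phosphorylation passes electrons from NADH through complex I and from succinate through complex II to complex III, then through cytochrome c to complex IV, which reduces oxygen. Complexes I, III and IV pump protons across the inner mitochondrial membrane, and ATP synthase uses the returning protons to make ATP. Most subunits are encoded in the nucleus and a few in mitochondrial DNA, and the thymocytes that pass the pre-T-cell receptor checkpoint divide rapidly before they become resting DP cells.

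The 3 genes of the ATP synthase c-ring encode the same mature protein from separate promoters, and they moved by different amounts below. Bases upstream of their RefSeq start sites (GRCm38.p6) are shown with those of Ndufaf4, an assembly factor that fell strongly in DP cells, and Cox6a1, a complex IV subunit among the largest rises in ISP cells. Each runs 5′ to 3′ from 250 bases before the RefSeq start and stops where it would enter a GENCODE M21 exon of its gene. GENCODE also has an Atp5g2 transcript that begins further upstream, so the Atp5g2 stretch lies in an intron of that transcript. Capitals mark CCAAT or its reverse complement ATTGG (the NF-Y motif) and the longer palindrome of the NRF1 motif, the capital run in Ndufaf4.
Atp5g1, chr11:96075671-96075881, minus strand: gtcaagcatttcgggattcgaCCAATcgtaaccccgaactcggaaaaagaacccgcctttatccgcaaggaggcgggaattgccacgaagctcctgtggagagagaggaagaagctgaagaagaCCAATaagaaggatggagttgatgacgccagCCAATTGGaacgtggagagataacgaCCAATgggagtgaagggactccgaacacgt
Atp5g2, chr15:102671128-102671297, minus strand: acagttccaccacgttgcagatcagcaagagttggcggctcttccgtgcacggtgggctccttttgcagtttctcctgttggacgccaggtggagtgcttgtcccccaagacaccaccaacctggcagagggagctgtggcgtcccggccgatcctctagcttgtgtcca
Atp5g3, chr2:73911327-73911576, minus strand: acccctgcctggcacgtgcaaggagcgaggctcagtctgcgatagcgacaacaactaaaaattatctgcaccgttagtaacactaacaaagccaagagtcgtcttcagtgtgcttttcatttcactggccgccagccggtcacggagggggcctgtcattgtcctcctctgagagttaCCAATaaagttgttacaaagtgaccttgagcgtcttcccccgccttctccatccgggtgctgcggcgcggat
Ndufaf4, chr4:24897833-24898082, plus strand: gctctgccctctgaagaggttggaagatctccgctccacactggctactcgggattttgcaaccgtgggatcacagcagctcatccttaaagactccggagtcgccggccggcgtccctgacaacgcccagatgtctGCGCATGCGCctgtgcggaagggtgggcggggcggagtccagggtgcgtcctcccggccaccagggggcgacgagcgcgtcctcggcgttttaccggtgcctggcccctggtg
Cox6a1, chr5:115348982-115349208, minus strand: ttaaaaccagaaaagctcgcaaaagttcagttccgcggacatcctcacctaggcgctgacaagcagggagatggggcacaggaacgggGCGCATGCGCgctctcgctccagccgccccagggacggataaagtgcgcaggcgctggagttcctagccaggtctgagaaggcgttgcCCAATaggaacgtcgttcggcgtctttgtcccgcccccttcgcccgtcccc

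The Atp5g1 stretch holds the NF-Y letters 5 times within 229 bases of the start, 2 of them overlapping as CCAATTGG, and Atp5g3 holds them once. The printed Atp5g2 stretch holds neither motif, and its NRF1 letters begin 42 bases before the RefSeq start, inside a GENCODE exon that is not shown. In the RefSeq promoter table (250 bases before to 50 after a start), 74 of the 94 genes had an entry, with 79 promoters between them. NRF1 letters were in 8.86% of the 79 and in 0.971% of all 32851 promoters. On either strand, CCGGAAG (the ETS motif bound by GABP) was in 21.5% against 8.86%, AAGATGG (YY1) in 12.7% against 6.34%, and CCAAT in 43.0% against 37.4%. The 7 genes with the NRF1 letters were Atp5g2, Atp5k, Cox6a1, Ndufa11, Ndufaf4, Ndufaf5 and Uqcrc1. The 79 promoters had a median GC content of 57.7%, against 52.7% for all promoters, and these matches are a description of letters.

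Levels differed more between members than between libraries. The median member of complex IV, counted over its 11 subunits outside the tissue isoforms, had a mean of 547.1 RPKM over the 12 libraries, against 371.0 RPKM for complex V, 344.3 for complex III, 235.8 for complex II and 193.5 for complex I. Atp5b, the catalytic beta subunit of the ATP synthase head, was highest at 1257 RPKM. Assembly factors, which help to build complex I and do not stay in it, had a median of 22.2 RPKM. Ndufs5, an accessory subunit of complex I, was the lowest in its complex at 8.64 RPKM, from 17 to 78 recovered reads. Of the 50-base windows of Ndufs5 transcripts, 21.7% also occur in a pseudogene, so its value is uncertain. Together the 94 genes made up between 4.78% and 5.25% of all RPKM in CD25 libraries, between 5.80% and 6.00% in ISP libraries, 4.48% and 4.52% in the DP control libraries, and 4.94% and 5.31% in the DP KO libraries.

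Several of the 8 tissue isoforms of complex IV were close to nothing. Cox7b2 and Cox8c were listed at 0 in every library, Cox8b was above 0 in 1 library at 0.195 RPKM, and Ndufa4l2 reached at most 0.0889 RPKM. These 4 genes did not pass the filter of 1 RPKM in at least 2 libraries, so 90 of the 94 genes were tested. Cox4i2 stayed between 0.383 and 2.20 RPKM, with 4 to 21 recovered reads. Cox7a1, the heart and muscle form, was between 4.41 and 10.8 RPKM, and Cox6a2 and Cox6b2 are described below.

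**Figure D1:**
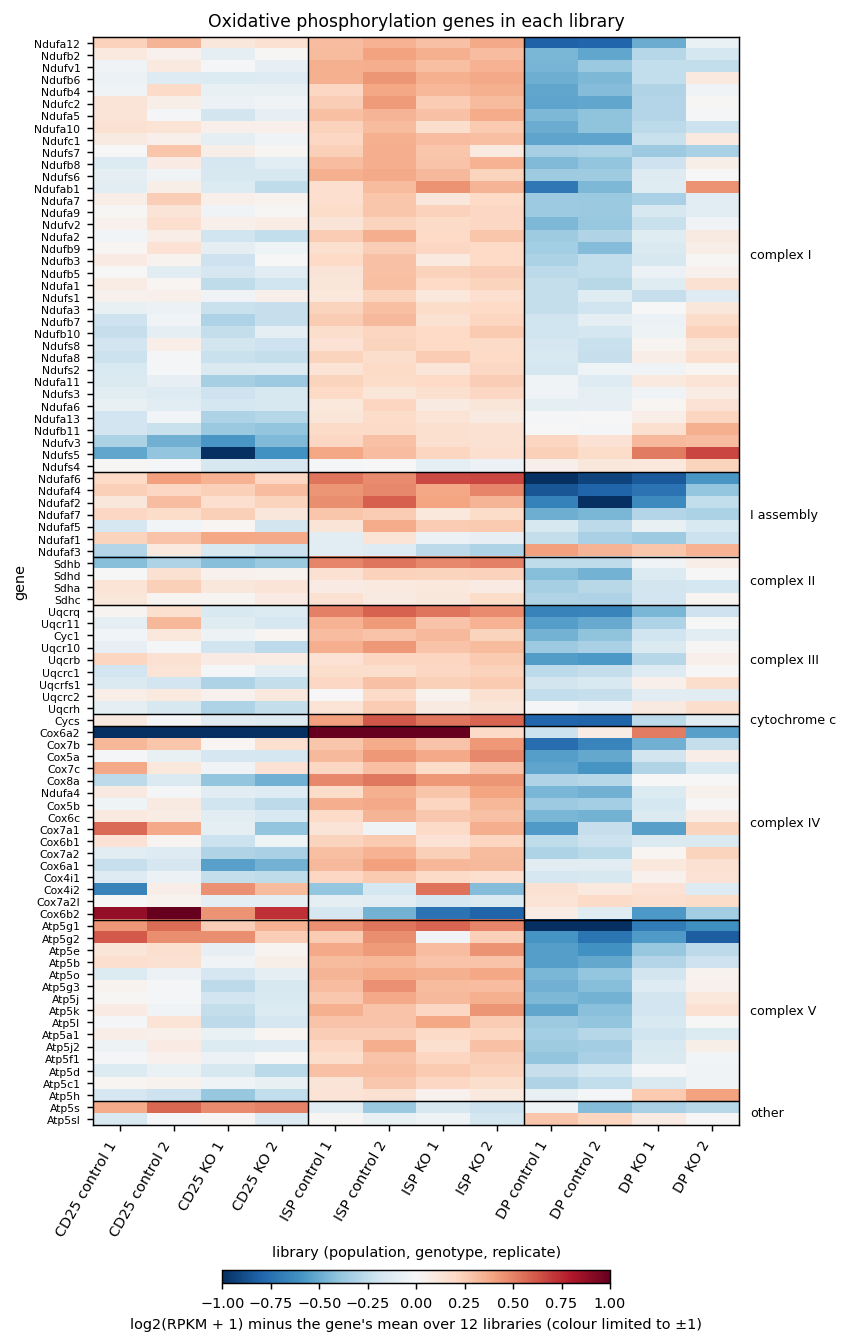
Level of each of the 90 tested genes in each library, as log2(RPKM + 1) minus the gene's mean over the 12 libraries (colour, limited to ±1), grouped by complex and ordered by the DP minus ISP difference. Most rows are red in the 4 ISP libraries and blue in the DP control libraries, and Ndufaf3, Ndufaf1, Cox6b2 and Atp5s are among the rows that do otherwise.

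From CD25 to ISP cells, genes of every complex rose. Of the 90 tested, 70 were higher in ISP cells, 4 were lower and 16 were not called, where a call is a Benjamini-Hochberg adjusted p under 0.05 over all 11303 genes tested with limma. Over all genes, 33.1% were called higher and 30.9% lower. The median difference of the 90 genes was 0.32 on the log2(RPKM + 1) scale, against 0.007 for all genes. By complex, 32 of 36 complex I subunits were higher (median 0.32), 2 of 4 in complex II (median 0.11), 7 of 9 in complex III (median 0.35), 9 of the 11 complex IV subunits outside the tissue isoforms (median 0.38) and 14 of 15 in complex V (median 0.34). None of these 75 subunits was called lower. All 4 ISP libraries were above all 4 CD25 libraries in 66 of the 90 genes and below them in 4, against 28.8% and 27.5% of all genes. In bulk RNA a change in the share of cells of a type and a change in RNA per cell cannot be told apart.

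Sdhb, the iron-sulfur subunit of succinate dehydrogenase, was 242.9, 263.8, 244.0 and 253.6 RPKM in CD25 cells and 458.7, 476.0, 457.8 and 464.2 RPKM in ISP cells. The 4 ISP libraries lay well above the 4 CD25 libraries, a rise of 0.88 (SE 0.042, limma adjusted p = 4.58e-09). The flavoprotein subunit of the same enzyme did not follow it: Sdha had a mean difference of -0.06 (limma adjusted p = 0.165). Sdhc and Sdhd, the membrane anchors, differed by 0.07 and 0.15, and only Sdhd of this pair was called.

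Cox8a, a small subunit of complex IV, rose by 0.79, from 426.2 ± 43.7 RPKM in CD25 cells to 734.7 ± 22.5 RPKM in ISP cells (SD, n = 4). Cox6a1 rose by 0.70, from 623.2 ± 78.2 to 1007 ± 30.5 RPKM (SD, n = 4). Ndufv3, an accessory subunit of the NADH-binding module of complex I, rose by 0.66 (SE 0.049, limma adjusted p = 2.24e-07). Ndufs5 rose by 0.94 from a low level: its CD25 libraries were between 3.06 and 5.91 RPKM and its ISP libraries between 9.22 and 10.9 RPKM. Cycs rose by 0.58, with 24.1 to 28.2 RPKM in CD25 libraries and 35.5 to 41.1 RPKM in ISP libraries. Core subunits of complex I rose by less than these, with a median of 0.27 over 7 genes, 6 of them called.

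Cox6a2, the heart and skeletal muscle form of subunit 6a, rose by 2.99 (SE 0.27, limma adjusted p = 1.28e-06). Its CD25 libraries held 1.06, 1.17, 0.279 and 1.13 RPKM, from 2 to 10 recovered reads each, so the size of this rise is imprecise. In ISP cells the control libraries held 26.4 and 21.3 RPKM and the KO libraries 12.4 and 4.94 RPKM, so every ISP library was above every CD25 library while the ISP libraries differed widely among themselves. It was still a small part of subunit 6a, with 1.58% of the summed Cox6a1 and Cox6a2 RPKM in ISP cells against 0.143% in CD25 cells. The muscle list stayed at or under 0.288 RPKM in these libraries.

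The 4 genes that were lower in ISP cells fill other roles. Cox6b2, known as the testis form of subunit 6b, fell by 1.33 (SE 0.093, limma adjusted p = 1.37e-07), from 23.5 to 37.2 RPKM in CD25 libraries to 9.32 to 14.9 RPKM in ISP libraries. Its share of the summed Cox6b1 and Cox6b2 RPKM went from 4.44% ± 0.561 to 1.48% ± 0.307 (SD, n = 4). Atp5s fell by 0.69 and Ndufaf1, an early complex I assembly factor, by 0.35. Cox7a2l, which takes part in joining complexes III and IV into supercomplexes, was lower by 0.09 (limma adjusted p = 0.039), and this call was lost when any of 9 libraries was left out, with adjusted p up to 0.111.

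From ISP to DP cells the direction turned. Of the 90 genes, 77 were lower in DP cells, 5 were higher and 8 were not called, against 35.0% of all genes called lower and 35.6% called higher. The median difference was -0.46, against 0.012 for all genes. All 11 main complex IV subunits were lower (median -0.54), as were 14 of 15 in complex V (median -0.56), 8 of 9 in complex III (median -0.55), 4 of 4 in complex II (median -0.40) and 31 of 36 in complex I (median -0.39). In 70 of the 90 genes every DP library was below every ISP library, against 29.4% of all genes, and in 3 every DP library was above, against 29.1%. In 54 genes all 4 ISP libraries were above the other 8 libraries, against 11.8% of all genes, and in 28 all 4 DP libraries were below the other 8, against 20.2%. Both DP control libraries were below the other 10 libraries in 52 genes, against 17.3% of all genes.

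**Figure D2:**
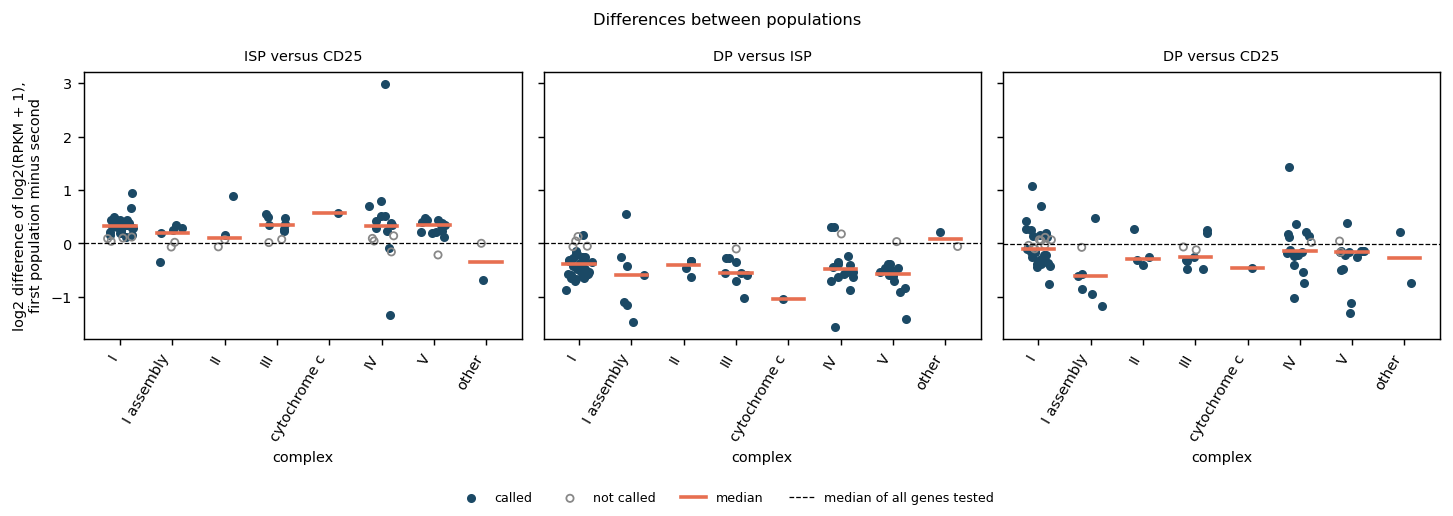
Log2 difference of log2(RPKM + 1) for each of the 90 genes (points) in 3 comparisons of populations, by complex, with filled points called at adjusted p under 0.05, orange bars at the median of each complex and the dashed line at the median of all genes tested. Medians of the 5 complexes lie above the dashed line for ISP against CD25 and below it in the other comparisons.

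Of the c-ring genes, Atp5g1 and Atp5g2 had the largest falls in complex V. Atp5g1 was between 187.1 and 204.1 RPKM in the 4 ISP libraries, and it was 59.3 and 61.6 RPKM in DP control and 83.7 and 88.7 RPKM in DP KO. The populations did not overlap. Atp5g1 fell by 1.42 on the log2 scale (SE 0.047, limma adjusted p = 2.63e-10), and its mean RPKM was 2.66-fold higher in ISP than in DP cells. Atp5g2 fell by 0.91 (SE 0.088) and Atp5g3, by far the most abundant of the 3, by 0.60 (SE 0.051), close to the median of complex V. As a share of summed c-ring RPKM, Atp5g1 was 16.6% ± 0.67 in CD25 cells, 13.9% ± 0.665 in ISP cells and 8.28% ± 0.376 in DP cells, while Atp5g3 was 80.8%, 84.5% and 90.2% (SD, n = 4). Shares of the c-ring did not overlap between populations for either gene. Of the 50-base windows of Atp5g2 exons, 38.3% also occur in other genes, so its value is uncertain.

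Cycs was 35.5, 41.1, 38.6 and 39.9 RPKM in ISP cells, 14.8 and 14.7 RPKM in DP control and 21.8 and 24.3 RPKM in DP KO. It dropped by 1.03 (SE 0.058, limma adjusted p = 1.28e-08), with no overlap between the populations. Of the 50-base windows of Cycs, 28.5% also occur in other genes, 10 of them pseudogenes. Uqcrq, a small subunit of complex III, dropped by 1.02, and its 4 DP libraries held 212.1, 213.4, 245.4 and 293.2 RPKM against 470.0 to 508.3 RPKM in ISP cells. Within complex I the largest fall was that of Ndufa12, an accessory subunit, at 0.87, and within complex IV outside the tissue isoforms it was that of Cox7b, also at 0.87. Atp5b dropped by 0.70, from 1520 ± 24.8 to 941.9 ± 109.1 RPKM (SD, n = 4).

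Of the 7 assembly factors of complex I, 6 were lower in DP cells and 1 was higher. Ndufaf6 dropped by 1.46 (SE 0.076), Ndufaf4 by 1.14 (SE 0.072) and Ndufaf2, a relative of Ndufa12, by 1.10 (SE 0.095). Ndufaf6 was 28.4 to 32.7 RPKM in ISP libraries and 8.52 to 13.1 RPKM in DP libraries. The exception was Ndufaf3, which works with Ndufaf4 in early assembly. Its ISP libraries were between 27.5 and 31.6 RPKM and its DP libraries between 41.9 and 45.8 RPKM, a rise of 0.55 (SE 0.071, limma adjusted p = 2.09e-05). Exons of Ndufaf2 overlap those of B230220B15Rik over 65.6% of their bases, and reads of these genes may not be separable.

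Besides Ndufaf3, the genes that were higher in DP than in ISP cells were Ndufs4, an accessory subunit of complex I (0.16), Cox7a2l (0.30), Cox6b2 (0.30) and Atp5sl (0.21). The Cox6b2 call was lost without ISP control 2 or DP KO 2 (limma adjusted p up to 0.0566). Atp5h, the d subunit of the ATP synthase stalk, differed by 0.04 (limma adjusted p = 0.511), and it was the one complex V subunit not called. Atp5h shares 36.9% of its windows with other genes. Ndufv3, Ndufs5, Ndufa13 and Ndufb11 were the complex I subunits not called, with differences between -0.06 and 0.13.

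Over both steps, 39 of the 90 genes were higher in ISP than in CD25 cells, lower in DP than in ISP cells and lower in DP than in CD25 cells. Another 13 rose and fell without a called difference between DP and CD25 cells, and 12 rose and fell but were still higher in DP than in CD25 cells. Sdhb belonged to this last class, with 273.8 to 343.6 RPKM in DP libraries. A further 12 genes had no called difference in the first step and were below both other populations in DP cells, and 6 rose in the first step and were not called in the second. The shares of all genes with these patterns were not counted, so the pattern counts cannot be set against genes in general. Directly between DP and CD25 cells, 54 genes were lower and 22 higher, against 38.4% and 37.3% of all genes, and 30 were lower and 13 higher without overlap of the libraries, against 32.8% and 31.4%. Ndufs5, with 17 to 78 reads per library, was highest among the complex I subunits in this comparison (1.07) and Ndufa12 lowest (-0.75). For the ISP and DP libraries together against CD25, 37 genes were higher and 20 lower, against 35.6% and 36.5% of all genes.

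**Figure D3:**
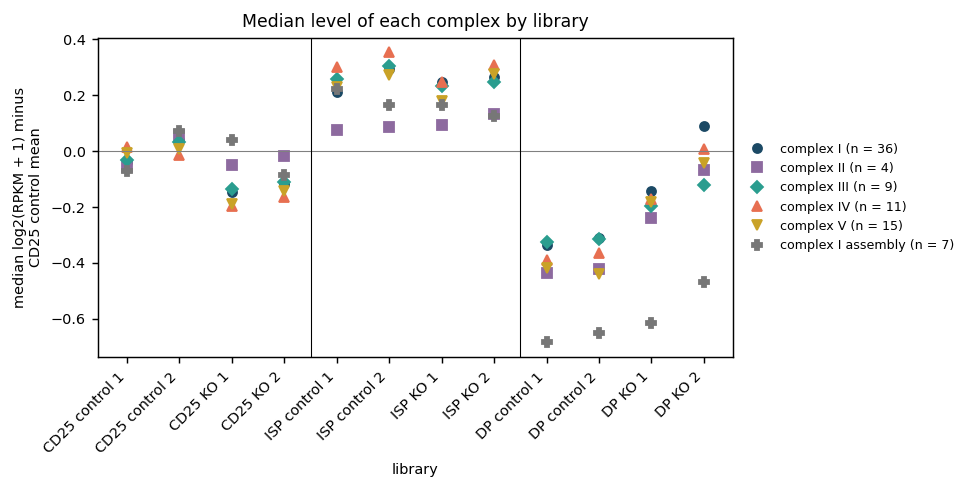
Median over the subunits of each complex of log2(RPKM + 1) minus the mean of the 2 CD25 control libraries (y axis), for each library (x axis); complex IV is shown over its 11 main subunits. The ISP libraries lie above 0 for every complex, the DP control libraries lie lowest, and DP KO 2 is above DP KO 1.

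Rescaling each library to the same sum of RPKM (a TPM scale) moved the median of all genes by 0.16 in DP against ISP cells and turned the split of all called genes there to 5353 higher and 3023 lower. The 90 genes then gave 65 lower and 10 higher, with a median of -0.29. In ISP against CD25 cells the same scale gave 59 higher and 7 lower of the 90, with 2786 higher and 4597 lower over all genes. Markers of other cells moved along with these steps: the summed NK and innate lymphoid list was between 606.0 and 799.1 RPKM in CD25 libraries, between 1068 and 1310 RPKM in ISP libraries and between 114.5 and 229.9 RPKM in DP libraries. Of its 7 tested genes, 6 were higher in ISP than in CD25 cells and 7 were below ISP in DP cells. The mast cell list summed to 35.0 to 39.9 RPKM in CD25 libraries, 13.1 to 34.5 in ISP libraries and 0.853 to 3.17 in DP libraries. In CD25 and DP libraries this sum was all Cpa3 and Kit. Its other members Cma1, Mcpt4 and Tpsb2 were at 0 there and each at most 1.54 RPKM in ISP libraries, so the sum does not show mast cells. The epithelial list, nearly all of it Epcam, went from between 107.9 and 120.1 RPKM in CD25 libraries to between 14.4 and 17.7 in ISP and between 15.8 and 21.9 in DP libraries. The B lineage list, with Pax5 at 0, was between 61.5 and 66.8 RPKM in CD25 libraries, between 22.1 and 26.5 in ISP libraries and at least 46.3 in DP libraries. The 4 proliferation genes Mki67, Top2a, Mcm5 and Mcm6 were all called higher in the first step, and 2 were called lower in the second. Their sum was 639.7 to 661.9 RPKM in CD25 libraries, 879.5 to 960.8 in ISP libraries and 460.7 to 647.2 in DP libraries. The sum hides differences between them. Mean Mki67 was 36.3, 75.9 and 77.3 RPKM in CD25, ISP and DP cells, and mean Top2a was 122.9, 227.5 and 218.8 RPKM. Mean Mcm5 was 126.5, 207.3 and 88.0 RPKM, and mean Mcm6 was 368.0, 410.5 and 164.2 RPKM. Between DP and CD25 cells 2 were called higher and 2 lower. Of the 5 sex-linked genes Xist, Ddx3y, Eif2s3y, Kdm5d and Uty, 4 were called lower in ISP and in DP than in CD25 cells. Between DP and ISP cells 0 were called. The part of these in the results was not tested.

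Between genotypes in CD25 cells, no gene of the 90 was called by limma on the 4 libraries, where 0.0094% of 10636 genes were called higher and 0.0094% lower. Before adjustment, 29 of the 90 had p under 0.05, as had 972 of the 10636 genes, and limma voom on recovered reads also called 0. The values nevertheless leaned to one side: in 58 of the 90 genes both KO libraries were below both control libraries, against 18.4% of all genes, in 3 both were above, against 21.8%, and the median difference was -0.13 against 0.006. The median was -0.21 for the 11 main complex IV subunits, -0.15 for complex V, -0.12 for complex I, -0.11 for complex III and -0.03 for complex II. Cox6a1 was 673.4 and 705.4 RPKM in control and 544.5 and 569.4 RPKM in KO libraries, without overlap and with a limma adjusted p of 0.221.

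In ISP cells no gene of the 90 was called between genotypes, where 0.257% of all genes were called higher and 0.0973% lower. The median difference was -0.025 against -0.007 for all genes, and 26 genes were lower and 4 higher in KO without overlap, against 24.1% and 21.1% of all genes. Before adjustment, 2 of the 90 and 1494 of the 11303 genes had p under 0.05. The 2 were Cox6a2, at 26.4 and 21.3 RPKM in control and 12.4 and 4.94 RPKM in KO libraries (limma adjusted p = 0.117), and Cox6b2 (difference -0.45, limma adjusted p = 0.155). Voom on recovered reads called 1 of the 90, lower in KO. A p above the threshold does not show that the genotypes are alike here.

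In DP cells the genotypes differed. Of the 90 genes, 57 were higher in KO than in control, 1 was lower and 32 were not called, against 14.1% of all genes called higher and 7.78% lower. The median difference was 0.27 against 0.001 for all genes, and in 77 of the 90 genes both KO libraries were above both control libraries, against 32.0% of all genes, and in 2 both were below, against 30.3%. Called higher were 10 of the 11 main complex IV subunits (median 0.33), 12 of 15 in complex V (median 0.30), 6 of 9 in complex III (median 0.28), 23 of 36 in complex I (median 0.27) and 3 of 4 in complex II (median 0.24). Within complex I, 21 of 29 accessory subunits were called and 2 of 7 core subunits, Ndufs8 and Ndufv2. Whether complexes or subunit classes differ from each other in this comparison was not tested.

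**Figure D4:**
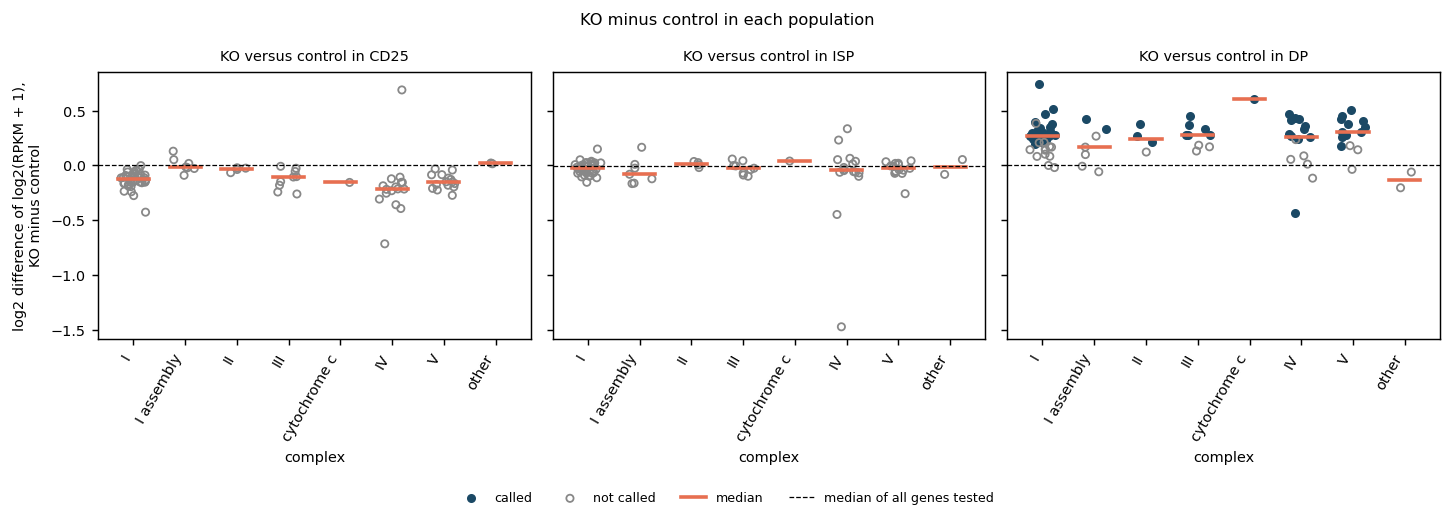
Log2 difference of log2(RPKM + 1), KO minus control, for each of the 90 genes in CD25, ISP and DP cells, by complex, with the symbols of the plot of population differences. Medians of the 5 complexes lie below the dashed all-gene median in CD25 cells, near it in ISP cells and above it in DP cells, where 57 genes are called higher and Cox6b2 is called lower.

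Ndufab1, the mitochondrial acyl carrier protein that is also a complex I subunit, had the largest difference at 0.74 (SE 0.151, limma adjusted p = 0.00592). Its DP control libraries held 28.0 and 33.9 RPKM and its KO libraries 42.7 and 64.0 RPKM, without overlap but with a wide gap between the KO libraries. Without DP control 1 its adjusted p was 0.057. Cycs was higher in KO by 0.61 (SE 0.082, limma adjusted p = 7.13e-04), and its call held whichever library was left out, with adjusted p up to 0.011. Ndufa12 was 130.5 and 131.9 RPKM in control and 162.4 and 218.0 RPKM in KO, a difference of 0.52, and 26.2% of its 50-base windows also occur in other genes. Among the 94 genes, 18 share at least 20% of their windows with other genes, Atp5l most of all at 84.8%, so these values are uncertain where reads could be split.

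Atp5g1 was higher in DP KO by 0.50 (SE 0.066, limma adjusted p = 5.91e-04) and Atp5g3 by 0.41 (SE 0.072). Atp5g3 held 671.2 and 694.9 RPKM in control and 855.5 and 961.9 RPKM in KO libraries. Atp5g2 was 13.2 and 11.9 RPKM in control and 13.5 and 11.1 RPKM in KO, with overlap and a difference of -0.04 (limma adjusted p = 0.869). Cox5a, a matrix-side subunit of complex IV, was higher by 0.47, and Uqcrb, a small subunit of complex III, by 0.45, with 32.0% and 43.4% of their windows shared with other genes. In complex II, Sdhd was higher by 0.38, Sdhb by 0.27 and Sdhc by 0.22, and Sdha was not called (0.12). Cox6b2, the gene called lower, held 17.9 and 15.5 RPKM in control and 11.0 and 13.1 RPKM in KO. It fell by 0.44 (limma adjusted p = 0.0346), and this call was lost without any one of the 4 DP libraries.

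**Figure D5:**
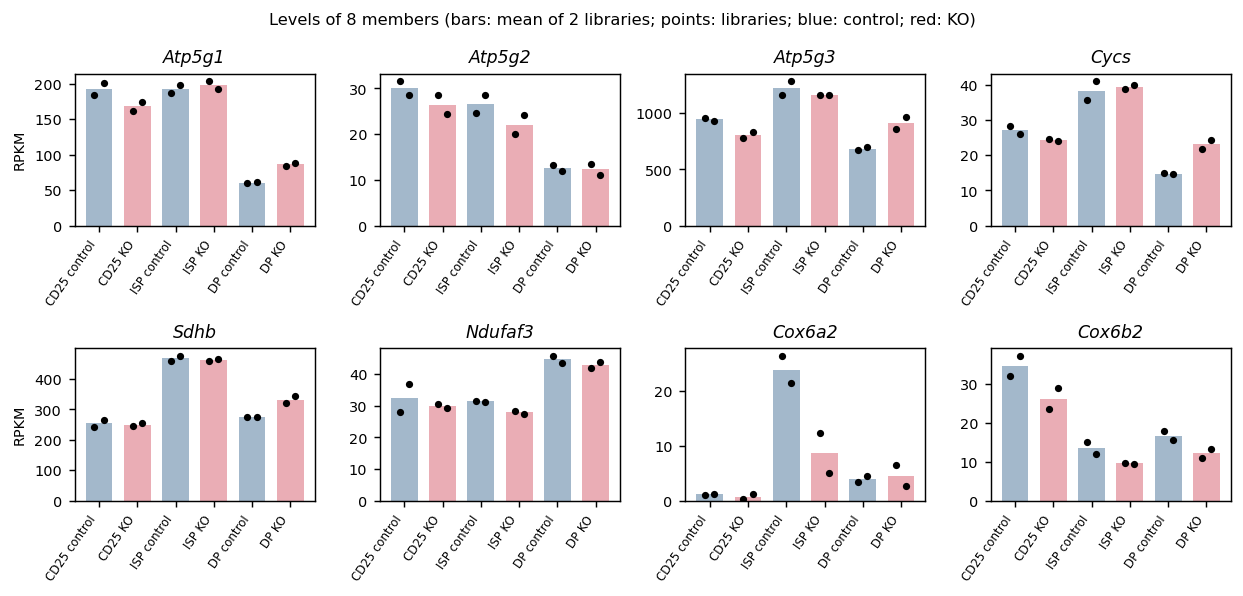
RPKM of 8 genes in the 6 groups, with bars at the mean of 2 libraries, points for the libraries, blue for control and red for KO. Atp5g1, Atp5g3, Cycs and Sdhb are higher in DP KO than in DP control, Atp5g2 is not, Ndufaf3 is highest in DP cells, and Cox6a2 and Cox6b2 are high in ISP control and in CD25 cells respectively.

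The count in DP cells rested on single libraries. It was 19 without DP control 1, 30 without DP control 2, 64 without DP KO 1 and 18 without DP KO 2, where 796, 890, 1668 and 635 genes in all were called higher. The median of the 90 genes stayed between 0.20 and 0.33 in these 4 fits. DP KO 2 was above DP KO 1 in 80 of the 90 genes, against 50.9% of all genes, and the median gap between these libraries was 0.15 for 89 genes with a known length against 0.003 for all genes. On the TPM scale 37 genes were higher and 2 lower (median 0.17), and all called genes split into 955 higher and 1773 lower.

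Other values moved with genotype in DP cells. The 4 proliferation genes were called higher in DP KO, with sums of 613.4 and 647.2 RPKM against 460.7 and 472.0 RPKM in control. Myeloid markers summed to 51.2 and 78.0 RPKM in KO against 12.8 and 18.9 RPKM in control. Of these, 3 of 5 tested genes were called higher. Lyz2 made up most of the KO sums, at 43.8 and 65.2 RPKM, and Cd68 and Itgam overlapped between genotypes. The NK and innate list summed to 185.3 and 229.9 against 114.5 and 130.9 RPKM, with 3 of 7 tested genes called higher. Most of it was Gzma, at 145.9 and 187.1 against 103.4 and 93.2 RPKM. Klrd1, Klrb1c and Nkg7 overlapped between genotypes, and Ncr1 was lower in KO, under 1 RPKM throughout. Cd4 was lower in KO, with 249.5 and 190.6 RPKM against 344.1 and 338.0 RPKM. Genotype went with sex-linked genes: the Y-linked genes Ddx3y, Eif2s3y, Kdm5d and Uty were at most 0.238 RPKM in all 4 ISP and DP KO libraries and between 2.20 and 88.7 RPKM in the 4 ISP and DP control libraries, while Xist was 0.766 and 0.914 RPKM in ISP control 2 and DP control 2 and at least 20.5 RPKM in the other 6. In ISP and DP cells the effects of genotype and sex cannot be told apart. The 4 Y-linked genes were called lower in DP KO, and the 3 X-linked genes of the 90 (Ndufa1, Ndufb11 and Cox7b) were called higher with a median of 0.27. Across 10877 genes with a known exon length, the KO minus control difference in DP cells had a Spearman rho of -0.25 with length, and across 89 of the 90 genes it was -0.085, genes not being independent replicates. Median exon length was 1756 bases for these genes and 4255 bases for all. The part of these values in the result was not tested.

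The step from ISP to DP was compared between genotypes in the same fit, which shares the ISP and DP libraries with the comparisons above. In 12 of the 90 genes the step was called higher in KO than in control and in 0 lower, against 3.67% and 0.522% of all genes. Cycs dropped by 1.31 from ISP to DP in control and by 0.75 in KO, a difference of 0.57 (SE 0.116, limma adjusted p = 0.0214). Atp5g1 dropped by 1.65 in control and by 1.19 in KO. Before adjustment, 62 of the 90 and 2441 of all genes had p under 0.05. Leaving out DP control 1, DP control 2, DP KO 2, ISP control 2 or ISP KO 2 left 0 of these calls, while leaving out DP KO 1 gave 47.

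Genes outside the symbol rule that serve the same machinery were counted from lists, to be read against 35.0% of all genes lower and 35.6% higher from ISP to DP cells, and 33.1% higher and 30.9% lower from CD25 to ISP cells. Of 40 tested assembly factors, 21 fell and 6 rose from ISP to DP cells, so a larger share fell than over all genes. In ISP against CD25 cells 12 were higher and 10 lower, shares below those of all genes. Atpif1, the inhibitor of ATP synthase, dropped by 0.82 (SE 0.049) and Uqcc2, a complex III assembly factor, by 1.18 (SE 0.076) from ISP to DP. Of 17 tricarboxylic acid cycle and pyruvate dehydrogenase genes, 12 fell and 1 rose from ISP to DP cells, among them Idh3a, which dropped by 0.93, and 9 were higher and 2 lower in ISP than in CD25 cells. Of 16 carriers and channels, 10 fell and 2 rose from ISP to DP cells, among them Vdac3, a pore of the outer membrane, which dropped by 0.60. In DP KO against control, 8 of the 40 assembly factors, 2 of the 17 cycle genes and 6 of the 16 carriers were higher and 0 lower, against 14.1% and 7.78% of all genes; the share of cycle genes was below that of all genes.

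Regulators of mitochondrial biogenesis moved about as often as genes in general. Of 22 tested, 8 fell and 7 rose from ISP to DP cells, and 6 were lower and 5 higher in ISP than in CD25 cells, against the shares of all genes just given. Myc, a transcription factor that drives growth, was 130.2 to 152.7 RPKM in ISP libraries, 20.9 and 18.8 RPKM in DP control and 35.5 and 41.6 RPKM in DP KO. It dropped by 2.33 from ISP to DP (SE 0.057, limma adjusted p = 6.16e-11) and was higher in DP KO than control by 0.92 (SE 0.081, limma adjusted p = 1.03e-04). Pprc1, a coactivator related to PGC-1, dropped by 1.61 from ISP to DP and was higher in DP KO by 0.45. Other regulators had higher levels in DP than in ISP cells. Nrf1 was 30.9 to 32.6 RPKM in ISP libraries and 36.9 to 40.1 RPKM in DP libraries. Gabpa was 22.7 to 24.6 and 25.1 to 26.2 RPKM in the same libraries, and Gabpb1 was 19.6 to 21.5 and 22.7 to 25.8 RPKM. In DP KO, 4 of the 22 regulators were higher and 1, Polg, the mitochondrial DNA polymerase, was lower.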

How the data were processed

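RNA-seq of sorted thymocytes was deposited as 1 table of RPKM values for 24421 genes in 12 libraries, made by the authors with BWA and GRCm38 per the submitters' processing notes; which counting step and strand setting were used is not given in the sources used here. By their values, the deposited RPKM lie on a common median-of-ratios scale across libraries, and whole reads could be recovered for 15949 of 15949 genes above 0 in at least 2 libraries (100% of 168430 values within 0.02 reads).

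Genes that reached 1 RPKM in 2 or more libraries were tested on log2(RPKM + 1), with a pseudocount of 1, by limma 3.58.1 in R 4.3.3 with a mean-variance trend and Benjamini-Hochberg adjustment (threshold 0.05). Fold changes on this scale understate changes of low genes. All 12 libraries entered a joint fit of the 6 groups, with 11303 genes and 6 residual degrees of freedom, each population being the mean of its control and KO groups. KO against control in CD25 cells was fitted on its 4 libraries (10636 genes, 2 residual degrees of freedom). There were 8 comparisons, tested two-sided, and the code was tested on simulated data. Every member was eligible to be named. First came, for each complex, those with the highest level, the largest and smallest difference between DP and ISP cells and a call between genotypes; tissue isoforms were always named, and of other lists up to 4 genes with the smallest p. Members and lists were chosen with earlier results of these data known. Recovered reads ranged from 9657575 to 14227859 per library. Promoters came from RefSeq (GRCm38.p6), and exons, lengths and shared 50-base windows from GENCODE M21, in which 93 of the 94 genes were matched. Alternatives were other pseudocounts, filters, scales and groupings, voom on recovered reads, a replicate block and leaving out each library.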

Additional observations from a re-analysis of the deposited data

Results flagged for a closer look

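The ISP-to-DP step differed between genotypes in 12 genes, by the limma test of the difference itself (adjusted p under 0.05), and each fell less in KO than in control, or rose in KO. Cycs differed by 0.57 (adjusted p = 0.0214). Of the ATP synthase genes, Atp5g3 differed by 0.48, with a fall of 0.84 in control and 0.36 in KO, Atp5g1 by 0.46, Atp5h by 0.45, with a step of -0.19 in control and 0.26 in KO, and Atp5b by 0.32 (adjusted p = 0.0496). In complex IV, Cox7a2 differed by 0.46, Cox6c by 0.42, Cox8a by 0.36 and Cox4i1 by 0.31. In complex I, Ndufs6 differed by 0.39 and Ndufa3 by 0.35, and in complex III Uqcr10 differed by 0.38. The adjusted p-values lay between 0.0204 and 0.0496, and 5 of the 8 ISP and DP libraries, left out singly, each left 0 of these calls. Proliferation genes and the summed myeloid and innate lymphoid lists also differed between the DP genotypes, and their part was not tested. In DP KO these 2 lists were mostly Lyz2 and Gzma, and several of their other genes did not differ. Levels of Y-linked genes went with genotype in these libraries, and the effects of sex and genotype cannot be told apart.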

How the results depend on the processing

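Counts below are of the 90 genes unless all genes are named, and the cause of each change was not tested. Sequencing library names set libraries titled DP against libraries titled ISP in both genotype comparisons of anti-CD3 cells, and mix both titles in the population comparisons, so these values are no check of genotype. With groups by sequencing library name, ISP against CD25 gave 24 higher and 9 lower, with 3248 and 3308 over all genes. DP against ISP gave 0 and 0, as over all genes. DP against CD25 gave 18 higher and 14 lower (all genes 3251 and 3391). Anti-CD3 against CD25 gave 26 higher and 13 lower (all genes 3542 and 3643). KO against control gave 3 higher and 61 lower in ISP (all genes 2681 and 2821). In DP it gave 2 higher and 66 lower (all genes 2715 and 2907). The step between genotypes gave 0, as over all genes. Signs then differed for Cox6a2 (0.56), Ndufs4 (-0.057) and Cox7a2l (-0.023) in DP against ISP, for Cox7a2l (0.069) in ISP against CD25, and, between libraries titled DP and ISP, in DP KO for Ndufab1 (-0.73), Cycs (-1.002), Ndufa12 (-0.948), Atp5g1 (-1.46), Sdhd (-0.47), Uqcrb (-0.60), Cox5a (-0.72), Cox6b2 (0.20) and Atp5b (-0.725). Libraries with concurring population labels gave 3 higher and 71 lower in DP against ISP (all genes 2993 and 3161). They gave 13 higher and 44 lower in DP against CD25 (all genes 3573 and 3810). In anti-CD3 against CD25 they gave 24 higher and 13 lower (all genes 3355 and 3550). The TPM scale gave 59 higher and 7 lower in ISP against CD25 and 10 higher and 65 lower in DP against ISP. It gave 37 higher and 2 lower in DP KO, and 4 for the step. Without a filter, with 92 of the genes tested, DP KO gave 43 higher and 0 lower and the step 0. Voom on recovered reads gave 1 lower in ISP KO, 51 higher and 0 lower in DP KO and 21 for the step.

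Leaving out each library in turn gave 64 to 73 higher and 3 to 5 lower in ISP against CD25, 4 to 5 higher and 76 to 79 lower in DP against ISP, and 18 to 64 higher and 0 to 1 lower in DP KO. It gave 0 to 1 lower in CD25 KO (1 without CD25 KO 1 or KO 2) and in ISP KO (1 without ISP KO 1), and 0 to 47 for the step. Where 1 library was left in a group, it was assumed to vary like the others. Of the gene-level values, 415 kept their call and direction and 17 lost the call over these fits.

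Same-numbered libraries had correlations of deviations between -0.066 and 0.125, so the numbers were not taken as pairs. The highest was between ISP and DP control, where Xist was also alike by number, at 20.5 and 22.5 RPKM in number 1 and 0.766 and 0.914 RPKM in number 2. With the replicate block the counts were 71 higher and 3 lower, 5 and 77, 23 and 54, and 38 and 22 for the 4 population comparisons, 59 and 1 for DP KO, and 13 for the step. Among the tested members, Cox4i2 (4 to 21 reads per library) and Cox6a2 in CD25 cells (2 to 10 reads) are limited most by depth.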
